A study of Bos taurus with 24 samples.

Results

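Genes of the transforming growth factor beta (TGF-beta) and bone morphogenetic protein (BMP) pathway were followed in cultured bovine dermal fibroblasts, the matrix-forming cells of the skin. The 10 genes were the ligand genes TGFB1, TGFB2, TGFB3, INHBA, BMP2 and BMP4, the secreted BMP antagonist GREM1, the target genes ID1 and ID3, and SMAD7, which encodes an inhibitory SMAD. They were chosen by symbol for their place in the pathway, with earlier results of these data known. All 10 were found, each on 1 row, among 27550 rows with a gene symbol and 59846 rows in all.

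The cultures came from 4 Angus heifers, a beef breed, and 4 Holstein heifers, a dairy breed, all of about the same age. Fibroblasts had been grown from skin of the shoulder, frozen and revived, and were kept in serum medium with insulin, transferrin, selenium and antibiotics. RNA was taken at 0 h and after 2 h and 8 h with 100 ng/ml lipopolysaccharide (LPS), which bacteria of the Gram-negative kind carry in their outer membrane. This gave 24 RNA samples in 6 groups of 4, and lysates of duplicate wells were pooled, so a sample stands for 1 animal at 1 time point. No culture kept for 2 h or 8 h without LPS was analysed here, so the effect of LPS and that of time in culture cannot be told apart.

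TGF-beta ligands and activins bind serine/threonine kinase receptors that phosphorylate SMAD2 and SMAD3, while BMPs act through receptors that phosphorylate SMAD1, SMAD5 and SMAD9. The ID genes are classical targets of the BMP arm, and SMAD7 is induced by either arm and feeds back on the receptors. In dermal fibroblasts the pathway is best known for driving collagen synthesis and the contractile myofibroblast state in wound repair and fibrosis.

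Total counts were 51014538 to 104406293 per sample, and the lowest count of any of the 10 genes in any sample was 129, for BMP4. CPM values are counts scaled to library size with edgeR's TMM factors. The 10 fibroblast markers, such as COL1A2 and PDGFRA, were all above 1 CPM in 24 of 24 samples. Angus cultures held a summed 36656 to 57183 CPM of them and Holstein cultures 58338 to 80159 CPM, so this sum moved with the breed. The collagen genes COL1A2 and COL3A1 were its largest parts (medians of 25332 and 20367 CPM, against 194 CPM for PDGFRA). The sum thus need not stand for each marker, and its part in the breed differences below was not tested. Apart from CNN1 and MYH11 of the mural and smooth muscle list (190.1 to 420.3 and 15.8 to 44.1 CPM), markers of other skin cells were low but not all at 0. The leukocyte list of 5 genes summed to 2.02 to 5.61 CPM, with PTPRC at no more than 0.709 CPM and CD68 above 1 CPM in 24 of 24 samples. The 5 endothelial genes summed to 0.959 to 3.50 CPM, with VWF at up to 3.28 CPM, and the 4 melanocyte genes to 1.48 to 3.48 CPM, with PMEL above 1 CPM in 23 samples. Of the keratinocyte genes KRT1 was at 0 in 24 samples, while Holstein animal 1 held 8.38 to 10.2 CPM of the basal keratinocyte gene KRT5, against at most 0.643 CPM in the other cultures. In 4 samples, 3 of them at 0 h (Holstein animals 2 and 4 and Angus animal 4) and 1 at 2 h (Angus animal 3), the collagen gene COL1A1 stood apart. It had 66.2 to 67.1 covered bases per count there, against 112 to 119 in the other samples. Its reads thus appeared to be counted in another way, for a reason that is not known. The same 4 samples had 96.2 to 96.5% of their reads matched, against 92.9 to 95.2% in the other samples, so they differed beyond this gene. These are the 4 samples with the other read counting named below. The covered bases per count of the 10 genes differed by at most 1.095-fold between samples.

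A change was called when its false discovery rate (FDR, edgeR's likelihood-ratio test with Benjamini-Hochberg adjustment over all rows) was below 0.05, it reached a fold change of 2 or more and the level averaged over 1 CPM. With the breeds combined, 3 of the 10 genes, TGFB1, ID1 and SMAD7, rose at 2 h (2.93% of all 20157 rows tested were called, 2.12% as higher). At 8 h against 0 h, 1 gene, ID1, rose (1.58% of all rows were called, 1.16% as higher). Between 2 h and 8 h, 1 gene, SMAD7, fell (2.89% of all rows, 1.69% as lower). In the Holstein cultures alone the same 3 genes rose at 2 h (3.14% of all rows, 2.41% as higher) and ID1 rose at 8 h (2.51%, 1.91% as higher). In the Angus cultures ID1 and SMAD7 rose at 2 h (2.98%, 1.97% as higher), with TGFB1 just under the fold limit, and none of the 10 was called at 8 h (0.863%), where 2 of the 10 had an FDR below 0.05 (3.90% of all rows) and 3 had an unadjusted p below 0.05; the quasi-likelihood F test and DESeq2 also called 0. The median log2 fold change of the 10 genes at 2 h was 0.15, beside -0.0044 over all rows tested.

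**Figure D1:**
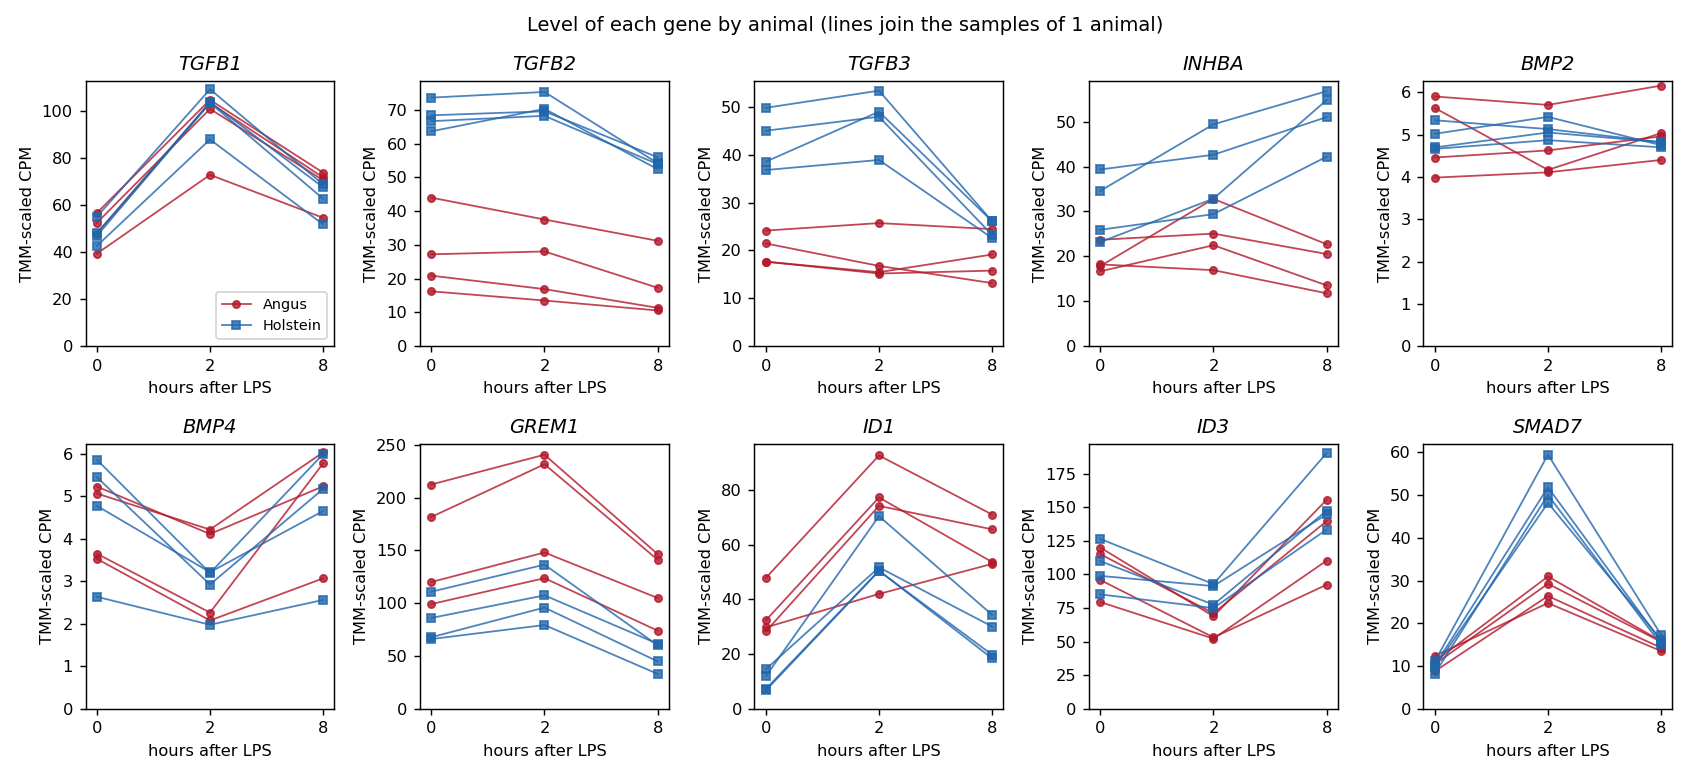
Level of each gene (TMM-scaled CPM, linear axes from 0) at 0, 2 and 8 h after LPS; each line joins the samples of 1 animal, with Angus as red circles and Holstein as blue squares. TGFB1, ID1 and SMAD7 peak at 2 h in most animals, while the Holstein lines of TGFB2 lie above every Angus line at all hours.

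Of the 3 TGF-beta isoforms, TGFB1 alone was called after LPS, and TGFB2 and TGFB3 alone between the breeds. TGFB1 encodes the most widely expressed isoform and lies on chromosome 18 (50771354 to 50785924, minus strand; all positions are on build UMD v3.1 and cover the whole gene span, introns included). Its level in Angus animals 1 to 4 was 47.9, 52.4, 39.3 and 56.6 CPM at 0 h, 103, 101, 72.8 and 105 CPM at 2 h, and 71.7, 70.6, 54.6 and 73.7 CPM at 8 h. In Holstein animals 1 to 4 it was 48.0, 42.6, 46.9 and 55.0 CPM at 0 h, 104, 87.9, 104 and 109 CPM at 2 h, and 67.5, 51.7, 62.7 and 68.8 CPM at 8 h. Every animal was highest at 2 h and still above its own 0 h level at 8 h, and the breeds overlapped at each hour. Of all rows tested, 36.1% moved 1 way in 8 of 8 animals at 2 h. The rise at 2 h was 1.01 ± 0.0972 (log2 fold change ± SE, edgeR FDR = 8.91e-23), and at 8 h the log2 fold change of 0.42 ± 0.0940 had an FDR of 1.55e-04 but was below the fold limit. The 2 h value lay so near the limit that the call was lost without Angus animal 1, Holstein animal 1 or Holstein animal 3 (log2 fold changes of 0.996, 0.996 and 0.998). Within the breeds the 2 h change was 1.07 ± 0.113 in Holstein (FDR = 6.90e-19) and 0.96 ± 0.168 in Angus cultures (FDR = 7.49e-07), where it passed the limit at 1.14 without the 4 samples with the other read counting. The interaction of 0.12 ± 0.198 had an unadjusted p of 0.540. A whole culture was measured in each sample, so more RNA per cell and more cells with the RNA cannot be told apart.

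TGFB2, on chromosome 16 (22495736 to 22588280, plus strand), differed between the breeds at every hour. At 0 h it stood at 20.9, 44.0, 27.2 and 16.2 CPM in Angus animals 1 to 4 and at 63.6, 68.4, 66.6 and 73.6 CPM in Holstein animals 1 to 4. At 2 h the Angus cultures held 16.9, 37.5, 28.0 and 13.5 CPM and the Holstein cultures 70.3, 69.6, 68.2 and 75.3 CPM. At 8 h the values were 11.3, 31.2, 17.3 and 10.6 CPM in Angus and 52.4, 55.9, 53.9 and 54.2 CPM in Holstein. The breeds did not overlap at any hour, and the Angus cultures were the more scattered, with a coefficient of variation of 44.8% against 6.16% at 0 h. The level was higher in Holstein cultures by a log2 fold change of 1.33 ± 0.271 at 0 h (edgeR FDR = 1.08e-04), 1.56 ± 0.289 at 2 h (FDR = 9.66e-06) and 1.62 ± 0.315 at 8 h (FDR = 4.75e-05). At 8 h all 8 animals were below their own 0 h level, by 0.50 to 0.88 on the log2 scale in Angus and 0.28 to 0.44 in Holstein. Of all rows tested, 27.8% moved 1 way in 8 of 8 animals at 8 h. The combined log2 fold change of -0.48 ± 0.219 was under the fold limit, and its FDR was 0.104, or 1.24e-10 with the animal as a block and 1.55e-04 with the block in a quasi-likelihood F test.

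TGFB3, on chromosome 10 (88242178 to 88266347, minus strand), was also higher in Holstein cultures at 0 h and 2 h. The Angus cultures held 17.7, 24.2, 21.5 and 17.6 CPM at 0 h, 15.2, 25.7, 16.8 and 15.5 CPM at 2 h, and 15.8, 24.5, 13.2 and 19.2 CPM at 8 h. The Holstein cultures held 36.8, 49.8, 38.6 and 45.1 CPM at 0 h, 38.9, 53.4, 49.0 and 48.0 CPM at 2 h, and 22.6, 26.1, 26.1 and 23.2 CPM at 8 h. The breeds were apart at 0 h and 2 h and overlapped at 8 h, when the 4 Holstein cultures were all below their 0 h levels. The log2 difference was 1.07 ± 0.154 at 0 h (edgeR FDR = 2.41e-09), 1.37 ± 0.195 at 2 h (FDR = 1.54e-09) and 0.44 ± 0.189 at 8 h (FDR = 0.0942). The call at 0 h fell under the fold limit without the 4 samples with the other read counting (0.84) and without Holstein animal 2 (0.99). From 0 h to 8 h the Holstein log2 fold change was -0.79 ± 0.124 (FDR = 1.10e-08) and the Angus one -0.16 ± 0.210 (FDR = 0.842). The difference between these changes, -0.64 ± 0.247, had an unadjusted p of 0.00936 and an FDR of 0.960, or an FDR of 0.0276 with the animal as a block and 0.144 with the block in a quasi-likelihood F test, and was called in none of these fits.

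INHBA encodes the activin A subunit and lies on chromosome 4 (79986254 to 79997768, plus strand). Angus animals 1 to 4 held 16.7, 23.7, 17.8 and 18.2 CPM at 0 h, 22.5, 25.1, 32.8 and 16.9 CPM at 2 h, and 13.5, 20.5, 22.7 and 11.8 CPM at 8 h. Holstein animals 1 to 4 held 25.9, 34.6, 39.4 and 23.2 CPM at 0 h, 29.4, 49.4, 42.6 and 32.8 CPM at 2 h, and 42.2, 56.8, 51.0 and 54.8 CPM at 8 h. From 2 h to 8 h it was lower in 4 of 4 Angus animals and higher in 4 of 4 Holstein animals. The changes of the breeds over this step also did not overlap for TGFB1, TGFB3, BMP2, GREM1, ID1 and SMAD7. For BMP2 the level was higher at 8 h in 4 of 4 Angus animals and lower in 4 of 4 Holstein animals. The share of all rows apart in this change is not given, and no interaction was fitted for it. The INHBA levels of the breeds overlapped at 0 h and 2 h and did not at 8 h. The breed difference was 0.69 ± 0.194 at 0 h (edgeR FDR = 0.00666) and 0.66 ± 0.231 at 2 h (FDR = 0.0278), both under the fold limit, and 1.58 ± 0.222 at 8 h (FDR = 2.16e-09), which was called. The breed by LPS interaction at 8 h was 0.89 ± 0.307 with an unadjusted p of 0.00405. Its FDR was 0.630, or 0.00218 with the animal as a block and 0.0960 with the block in a quasi-likelihood F test, and in each the value stayed under the fold limit.

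The BMP ligands were the lowest in counts of the 10 genes, and neither was called in any comparison. BMP2, on chromosome 13 (49550050 to 49561304, plus strand), varied from 3.99 to 6.16 CPM over the 24 samples, and its highest group mean was 1.10 times the lowest. Its log2 fold change was -0.03 at 2 h, with a 95% interval from -0.25 to 0.19, and -0.01 at 8 h, with an interval from -0.22 to 0.20. The interval of the breed difference at 0 h ran from -0.38 to 0.34. Changes of 2-fold lay outside each of these intervals. BMP4, on chromosome 10 (66751293 to 66755024, minus strand), was 5.06, 3.53, 3.65 and 5.23 CPM at 0 h and 4.22, 2.08, 2.26 and 4.11 CPM at 2 h in Angus animals 1 to 4. In Holstein animals 1 to 4 it was 5.45, 2.64, 4.77 and 5.86 CPM at 0 h and 2.92, 1.98, 3.21 and 3.19 CPM at 2 h. It was lower at 2 h in 8 of 8 animals and then higher at 8 h than at 2 h in 8 of 8 (34.8% of all rows moved 1 way in every animal from 2 h to 8 h). The log2 fold changes of -0.60 ± 0.201 at 2 h (edgeR FDR = 0.0133) and 0.69 ± 0.212 from 2 h to 8 h (FDR = 0.00570) were both under the fold limit.

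GREM1 encodes gremlin 1, a secreted protein that binds BMP2 and BMP4 and keeps them from their receptors. Its row covers 1381 bases of chromosome 10 (30038588 to 30039968, minus strand). The Angus cultures held 212, 120.1, 99.2 and 182 CPM at 0 h, 241, 148, 124 and 232 CPM at 2 h, and 146, 105, 74.0 and 141 CPM at 8 h. The Holstein cultures held 67.8, 111, 86.0 and 66.1 CPM at 0 h, 95.9, 137, 107 and 79.4 CPM at 2 h, and 44.9, 60.1, 61.6 and 33.0 CPM at 8 h. Each of the 8 animals was highest at 2 h and lowest at 8 h, and the breeds were apart only at 8 h, when every Holstein culture was below every Angus one. The Holstein level was lower by a log2 fold change of -1.22 ± 0.260 at 8 h (edgeR FDR = 2.28e-04). At 0 h the difference was -0.89 ± 0.263 (FDR = 0.0107) and at 2 h -0.83 ± 0.251 (FDR = 0.00888), both under the fold limit. Without Angus animal 3 or without Holstein animal 2 the 0 h difference passed it, at -1.05 and -1.06. The change within animals at 2 h was small, 0.30 ± 0.186 on the log2 scale, with an FDR of 0.235, or 5.16e-11 with the animal as a block and 1.98e-05 with the block in a quasi-likelihood F test.

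ID1 and ID3 encode inhibitors of DNA binding, helix-loop-helix proteins that lack a DNA-binding region and hold back differentiation factors. ID1, on chromosome 13 (61726125 to 61727284, plus strand), had the widest range of group means of the 10 genes, 7.11-fold from the lowest to the highest. At 0 h it was 28.3, 32.3, 29.7 and 47.8 CPM in Angus animals 1 to 4 and 11.9, 14.4, 7.22 and 6.70 CPM in Holstein animals 1 to 4. At 2 h it was 74.1, 77.2, 42.0 and 92.6 CPM in Angus and 70.4, 51.7, 50.5 and 50.4 CPM in Holstein. At 8 h it was 65.6, 53.6, 53.0 and 71.0 CPM in Angus and 34.3, 30.1, 18.4 and 19.7 CPM in Holstein. The Holstein cultures thus started below every Angus culture, overlapped with them at 2 h and were below all of them again at 8 h. The Holstein level was lower at 0 h by a log2 fold change of -1.78 ± 0.275 (edgeR FDR = 9.38e-08) and at 8 h by -1.24 ± 0.214 (FDR = 1.87e-06), while at 2 h the difference was -0.37 ± 0.237 (FDR = 0.284).

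With LPS, ID1 rose at 2 h by 2.46 ± 0.250 on the log2 scale in Holstein cultures (edgeR FDR = 7.46e-19) and by 1.05 ± 0.261 in Angus cultures (FDR = 0.00124). By animal, the log2 change at 2 h ran from 1.84 to 2.91 in Holstein and from 0.50 to 1.39 in Angus, with no overlap (10.1% of all rows tested had breeds that did not overlap in this change). At 8 h ID1 was still higher than at 0 h in 8 of 8 animals, with a rise of 1.35 ± 0.291 in Holstein cultures (FDR = 1.19e-04). The Angus change of 0.81 ± 0.193 at 8 h (FDR = 0.00234) was under the fold limit and passed it, at 1.01, without the 4 samples with the other read counting. The Angus call at 2 h was lost without Angus animal 1 (0.94, FDR = 0.0594) or without Angus animal 2 (0.97, FDR = 0.0604). Holstein animal 1, whose cultures held the most of the keratinocyte gene KRT5, was the highest Holstein sample of ID1 at 2 h. Without this animal the Holstein change was 2.42.

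ID3, on chromosome 2 (129895413 to 129897012, plus strand), was at its lowest at 2 h. The Angus cultures held 79.4, 115, 120.0 and 95.9 CPM at 0 h, 52.2, 71.1, 68.9 and 53.1 CPM at 2 h, and 110.3, 139.7, 156 and 92.4 CPM at 8 h. The Holstein cultures held 126, 109.9, 85.1 and 98.9 CPM at 0 h, 92.8, 77.5, 75.0 and 91.3 CPM at 2 h, and 190.4, 147, 133 and 145 CPM at 8 h. In 8 of 8 animals the level was lower at 2 h than at 0 h and higher at 8 h than at 2 h, and at 2 h every Holstein culture was above every Angus culture. The log2 fold changes were -0.54 ± 0.124 at 2 h (edgeR FDR = 1.34e-04), 0.41 ± 0.132 at 8 h (FDR = 0.0131) and 0.95 ± 0.120 from 2 h to 8 h (FDR = 1.78e-13). None of the 3 reached the fold limit, so ID3 was not called in any comparison.

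**Figure D2:**
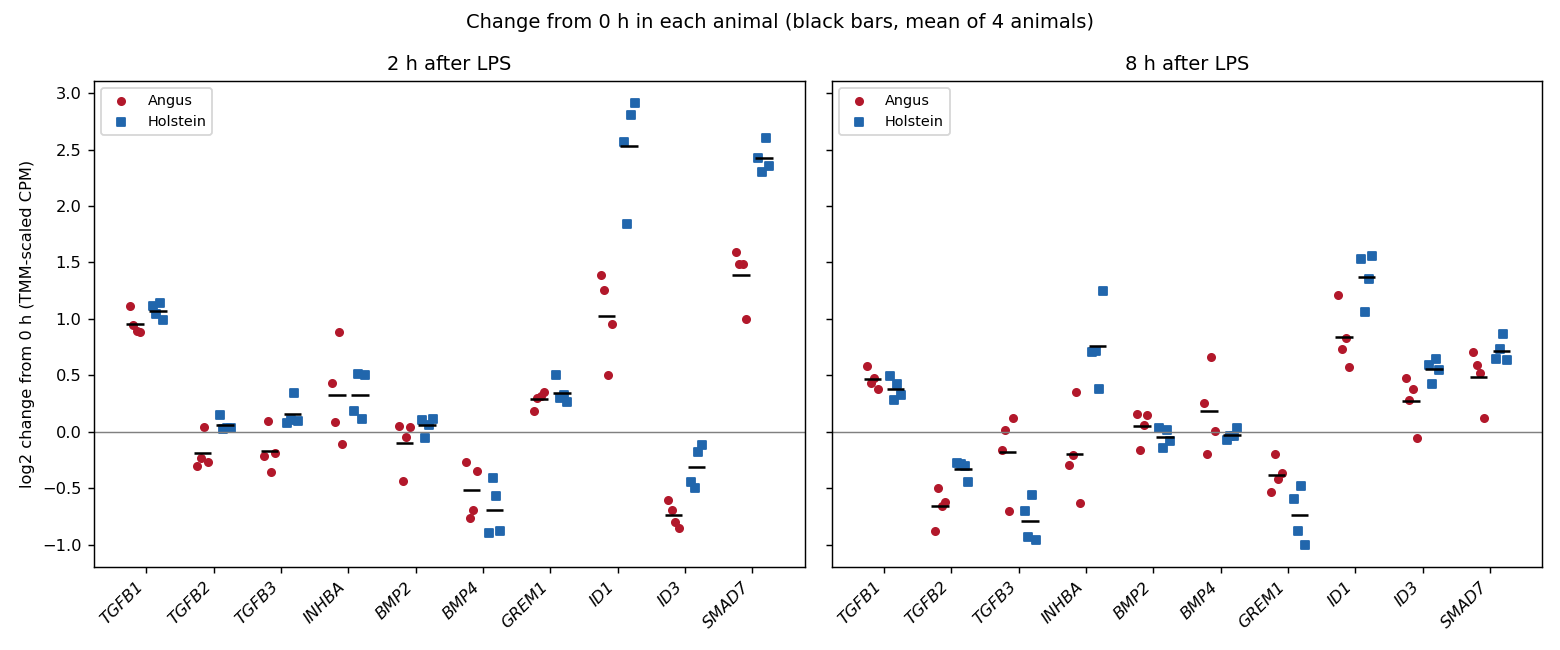
Log2 change of the TMM-scaled CPM from 0 h to 2 h (left) and to 8 h (right) in each animal, with black bars at the mean of 4 animals. At 2 h the Holstein squares of ID1 (1.84 to 2.91) and SMAD7 (up to 2.60) all lie above the Angus circles (up to 1.39 for ID1 and 1.59 for SMAD7). The same holds for ID3, which fell less in Holstein (-0.50 to -0.12) than in Angus animals (-0.85 to -0.61).

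SMAD7, on chromosome 24 (49071140 to 49098714, minus strand), blocks receptor-activated SMADs and recruits ubiquitin ligases to the TGF-beta receptor. Angus animals 1 to 4 held 8.78, 10.4, 11.1 and 12.4 CPM at 0 h, 26.4, 29.3, 31.0 and 24.7 CPM at 2 h, and 14.3, 15.7, 15.8 and 13.5 CPM at 8 h. Holstein animals 1 to 4 held 11.1, 9.75, 8.24 and 10.1 CPM at 0 h, 59.5, 48.2, 50.03 and 51.8 CPM at 2 h, and 17.3, 16.2, 15.0 and 15.7 CPM at 8 h. The breeds overlapped at 0 h and at 8 h and were fully apart at 2 h, and within each breed no 2 h value overlapped those of the other hours. The rise at 2 h was 2.41 ± 0.120 on the log2 scale in Holstein cultures (edgeR FDR = 4.67e-79) and 1.38 ± 0.149 in Angus cultures (FDR = 1.72e-17), and with the breeds combined it was 1.90 ± 0.157 (FDR = 1.47e-28). From 2 h to 8 h SMAD7 fell by 1.30 ± 0.122 (FDR = 3.30e-23). The level at 2 h was 27.8 ± 2.80 CPM in Angus and 52.4 ± 4.96 CPM in Holstein cultures (SD, n = 4). This breed difference of 0.91 ± 0.124 (FDR = 1.38e-10) was under the fold limit.

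Across the breed comparisons, 3 of the 10 genes were called at 0 h, with TGFB2 and TGFB3 higher and ID1 lower in Holstein cultures (3.81% of all rows, 1.73% as higher and 2.08% as lower). At 2 h the 2 called genes, TGFB2 and TGFB3, were higher in Holstein cultures (4.45% of all rows, 2.43% as higher). At 8 h there were 4, with TGFB2 and INHBA higher and GREM1 and ID1 lower (3.24% of all rows, 2.21% as higher and 1.03% as lower). The breeds did not overlap for 3 genes at 0 h and 4 at 8 h, beside 17.3% and 20.4% of all rows apart in either direction. At 2 h every Holstein culture was above every Angus one for 4 genes, TGFB2, TGFB3, ID3 and SMAD7. Beside these, 12.9% of all rows were apart at 2 h with Holstein higher. That share leaves out rows with Angus higher, so it is not like those at 0 h and 8 h. TGFB2 was the only one of the 10 called at all 3 hours, and the share of all rows called at every hour is not given. TGFB1, BMP2 and BMP4 overlapped between the breeds at every hour, and their breed differences lay between -0.17 and 0.13 on the log2 scale.

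**Figure D3:**
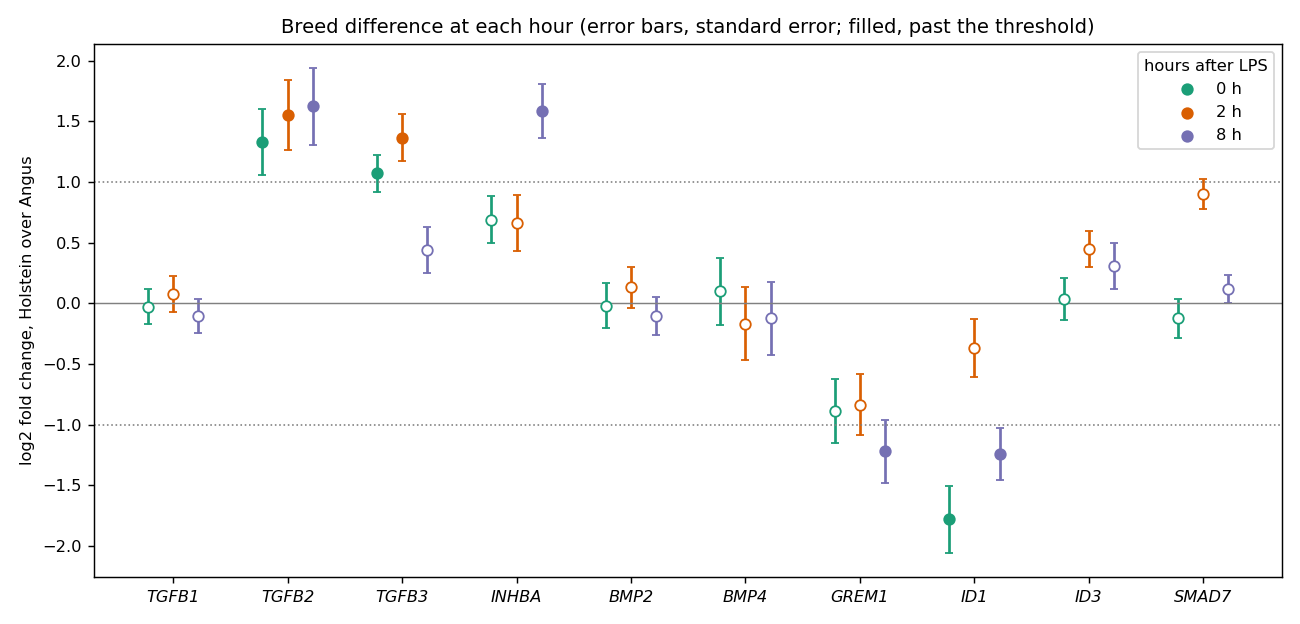
Breed difference (log2 fold change, Holstein over Angus) of each gene at 0, 2 and 8 h, with standard errors; filled points passed the threshold and dotted lines mark a 2-fold difference. TGFB2 is above the upper line at all hours, ID1 is below the lower line at 0 h and 8 h but not at 2 h, and INHBA passes the upper line at 8 h alone.

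Whether the change from 0 h differed between the breeds was asked of a breed by hour interaction term. At 2 h it was called for 2 of the 10 genes, SMAD7 and ID1 (0.278% of all rows, 0.193% as higher), with the larger change in Holstein cultures for both. The SMAD7 interaction was 1.04 ± 0.184 on the log2 scale (edgeR FDR = 1.89e-05), and it remained past the FDR limit in a quasi-likelihood F test (FDR = 0.0168). Without Angus animal 4 or Holstein animal 3 it dropped under the fold limit, at 0.90 and 0.97. The ID1 interaction was 1.43 ± 0.380 with an FDR of 0.0425, close to the limit. The quasi-likelihood F test gave an FDR of 0.263 for ID1, and the call held in 1 of 8 fits that left out 1 animal, while with the animal as a block the FDR was 3.42e-07, and 0.0148 with the block in a quasi-likelihood F test. At 8 h no interaction was called among the 10 genes (0.0982% of all rows). None of them had an FDR below 0.05 at 8 h (0.137% of all rows), and INHBA and TGFB3 had an unadjusted p below 0.05; the quasi-likelihood F test and DESeq2 also called 0. With the animal as a block INHBA, TGFB3, ID1 and TGFB2 had an FDR below 0.05 (0.00218, 0.0276, 0.0346 and 0.0478), with changes under the fold limit. In that fit 528 of all 20368 rows tested had an FDR below 0.05. With the block in a quasi-likelihood F test none of the 10 had, beside 65 of all rows.

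The wider pathway was read from a list of 78 other genes, of which 73 were in the tables and 58 were tested at 2 h with the breeds combined. Of these 58, 8 were called at 2 h, 6 higher and 2 lower (13.8% of those tested, beside 2.93% of all rows, 2.12% higher and 0.814% lower). Among 12 receptors and co-receptors none was called, and among 4 further ligands none was called. Of 13 SMADs and intracellular regulators 3 rose: SKIL and TGIF1, which are transcriptional corepressors, and PMEPA1, which sequesters receptor-activated SMADs. Among 11 genes of the latent complex and its matrix carriers 1 rose, LRRC32, whose product tethers latent TGF-beta to the cell surface, by 1.54 ± 0.150 on the log2 scale (edgeR FDR = 9.06e-22). Of 7 secreted antagonists 1 rose, FSTL3, an activin-binding protein, by 1.00 ± 0.0944 (FDR = 9.98e-24). Of 11 further targets JUNB rose, and CDKN2B and HES1 fell. Within the breeds 6 of 60 were called at 2 h in Holstein (3.14% of all rows) and 6 of 57 in Angus cultures (2.98%). At 8 h 1 of 60 was called in Holstein cultures, a share of 1.67% beside 2.51% of all rows. In Angus cultures 0 of 58 were called (0.863% of all rows), and 2 had an FDR below 0.05 (3.90% of all rows). The call of TGIF1 was lost without the 4 samples with the other read counting (1.00, against 1.04 with them), and that of FSTL3 with the animal as a block, where its fold change dropped just under 2.

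JUNB encodes an AP-1 factor and rose the most of the list at 2 h, by 1.83 ± 0.202 (edgeR FDR = 2.88e-16). Its level went from 31.2 ± 8.34 to 157 ± 42.5 CPM in Holstein cultures and from 24.6 ± 3.06 to 61.7 ± 17.3 CPM in Angus cultures (SD, n = 4). PMEPA1 started lower in Angus cultures, at 10.7 ± 3.41 CPM against 30.4 ± 5.30 CPM, and rose to 40.1 ± 2.01 and 58.4 ± 4.58 CPM (combined 1.42 ± 0.175, FDR = 1.80e-13). CDKN2B, a cell cycle inhibitor, fell by 1.25 ± 0.182 (FDR = 3.36e-10). Levels of different genes are not compared, since the rows differ in length. The summed level of the 4 listed mural and smooth muscle markers was 208 to 293 CPM at 0 h and 362 to 445 CPM at 2 h in Angus, and 220 to 322 CPM and 267 to 400 CPM in Holstein cultures. DES was at most 1.47 CPM and RGS5 at most 3.64 CPM in any sample, and CNN1 and MYH11 made up the rest; the part of these markers in the changes was not tested.

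Of 59 genes tested 1 was called at 8 h against 0 h, TGFBI, a secreted matrix protein, with a rise of 1.33 ± 0.369 (edgeR FDR = 0.00353; 1.58% of all rows were called). From 2 h to 8 h 4 of 58 were called, with LRRC32 and JUNB falling and HES1 and TGFBI rising (2.89% of all rows, 1.69% lower and 1.20% higher). The call of HES1 was lost without the 4 samples (0.95) and that of TGFBI with the animal as a block (0.95). Between the breeds, PMEPA1, CDKN2B and the BMP antagonist CHRD were higher and the co-receptor TGFBR3 lower in Holstein cultures at 0 h, 4 of 59 tested (3.81% of all rows). At 2 h 7 of 57 were called, with CHRD, SMAD3, ID2, JUNB, HES1 and HEY1 higher and TGFBR3 lower in Holstein cultures (4.45% of all rows). At 8 h CHRD alone of 60 was called (1.67%, beside 3.24% of all rows), at 1.32 ± 0.298 (FDR = 5.41e-04). Without the 4 samples with the other read counting, 1 of the 4 calls at 0 h was kept, PMEPA1, and the values of TGFBR3, CHRD and CDKN2B were -1.21 (FDR = 0.0954), 0.97 (FDR = 0.286) and 0.90.

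Of 58 listed genes 1 had a called interaction at 2 h (0.278% of all rows, 0.193% as higher), HES1, a Notch target that also responds to TGF-beta. HES1 went from 42.6 ± 5.22 to 11.2 ± 2.64 CPM in Angus cultures and from 35.3 ± 4.12 to 28.2 ± 4.51 CPM in Holstein cultures. It fell by 1.93 ± 0.194 in Angus (edgeR FDR = 2.59e-19), and the interaction was 1.61 ± 0.242 (FDR = 1.30e-07). For HES1, as for SMAD7 and ID1, the interaction was positive, but it reflects a smaller decrease in Holstein cultures where those of SMAD7 and ID1 reflect larger increases.

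**Figure D4:**
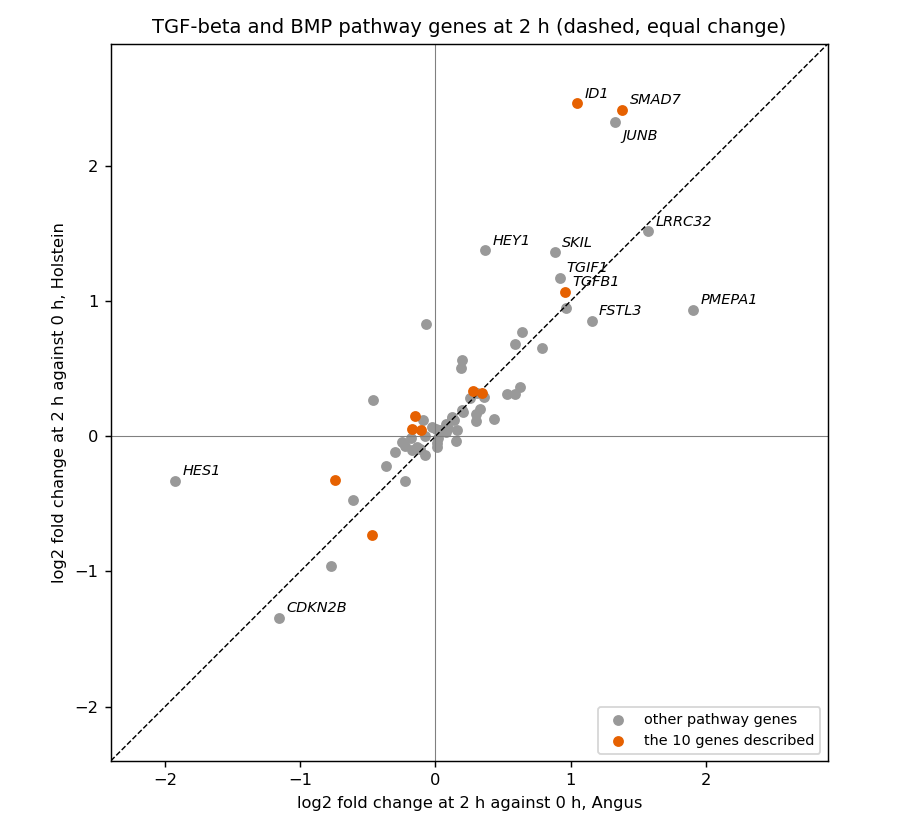
Log2 fold change at 2 h against 0 h in Angus (x axis) and in Holstein cultures (y axis) of the 10 genes (orange) and the other pathway genes (grey); genes called in either breed are named and the dashed line marks equal change. HES1, ID1 and SMAD7 lie furthest above the line, and PMEPA1 lies furthest to the right, at 1.90 in Angus.

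The pattern of each gene over the 24 samples was compared with those of 12958 gene rows by Pearson's r of log2 CPM, given as a description, since samples of 1 animal, breed and hour share their source. SMAD7 was most like NUAK2 (r = 0.954), a stress-responsive kinase, and CLCF1 (0.950), a cytokine of the interleukin 6 family. ID1 was most like F3 (0.920), which encodes tissue factor, and FOSL1 (0.882), an AP-1 factor. TGFB1 was most like NAB2 (0.934), a corepressor of EGR1, and TGFB2 most like COL11A1 (0.962), a fibrillar collagen. TGFB3 was most like ANKH (0.930), INHBA most like RAB5B (0.904), GREM1 most like CHST1 (0.940) and ID3 most like GPCPD1 (0.905). BMP4 (POLR3E, 0.836) and BMP2 (LOC613985, 0.753) had the least close partners. Among the 10 genes themselves, TGFB2 and TGFB3 were the most alike (0.869), with TGFB1 and SMAD7 next (0.867), and GREM1 and ID3 were the most opposed (-0.775).

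The data also hold intervals without a gene symbol on either side of each gene, which are long and can hold other transcripts. They border the gene rows, come from the same libraries and may share reads with them. They are thus not an independent readout of the genes. The interval on the 3′ side of GREM1 (chromosome 10, 29962646 to 30038587) held 2.56 times the counts of the GREM1 row. It differed between the breeds by -0.88 at 0 h, -0.81 at 2 h and -1.25 at 8 h on the log2 scale, beside -0.89, -0.83 and -1.22 for the row, and was likewise called at 8 h alone (edgeR FDR = 2.44e-04). The interval beyond the 3′ end of TGFB2 was higher in Holstein cultures by 1.27, 1.46 and 1.45 at 0, 2 and 8 h and was called at each hour. Beyond the 3′ end of INHBA (chromosome 4, 79997769 to 80866407) the breed difference at 8 h was 1.45 (FDR = 5.65e-09), beside 1.58 for the gene row. The interval on the 5′ side of INHBA differed by 0.04 at 0 h, -0.004 at 2 h and 0.38 at 8 h (FDR = 0.01455), and was not called. Beyond the 3′ end of SMAD7 the interval rose by 1.12 at 2 h (FDR = 1.55e-24), and its interaction of 0.51 was not called (FDR = 0.279). The interval past BMP4 changed by -0.01 at 2 h, beside -0.60 for the gene row.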

How the data were processed

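Polyadenylated RNA of 24 cultures was sequenced after TruSeq library preparation. The authors removed short and low-quality reads, matched the rest with NextGENe 2.3.4 to cattle build UMD v3.1, and deposited raw whole-number read counts per annotated gene span or gene-free interval; CASAVA 1.7 is named in the submitters' processing notes. The deposited mean coverage per row (a signal) was used only to look at how reads appeared to have been counted. Summed counts were 1.50 to 1.71 times the matched reads, so some reads had entered more than 1 row, and spans do not separate exons from introns or untranslated regions. None of the 10 rows overlapped another row.

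Rows with at least 1 CPM in 50% or more of the samples compared were kept, scaled by TMM and fitted with glmFit and glmLRT of edgeR 4.0.16 (limma 3.58.1, R 4.3.3), with an additive breed term where breeds were combined. P-values were adjusted by Benjamini-Hochberg over all rows kept. Standard errors were taken from the inverse information matrix. A self-test on simulated counts was run first, with a fixed dispersion and no correlation between samples of the same animal. It set no limit on recovery for the interaction, and it does not show how the fits perform on these data. Alternatives were the quasi-likelihood F test, DESeq2 1.42.0, RLE size factors, no filter, rows with a symbol only, leaving out 4 samples or each animal, and the animal as a block. Samples with the same number at different hours come from the same animal, and their deviations from group means correlated (mean r of 0.714 between 0 h and 2 h, 0.686 between 0 h and 8 h and 0.681 between 2 h and 8 h; lowest of any animal 0.473). Animals are the replicates. All 10 genes are described, and of the other pathway genes those called with the largest changes are named, the rest by counts; SKIL, TGIF1, FSTL3, SMAD3 and ID2 were named beside them to complete the counts. A further listed pathway gene is not reported here. The genes and gene lists were chosen with earlier results of these data known. No genome sequence of this build was used here, so no sequences are shown.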

Additional observations from a re-analysis of the deposited data

Results flagged for a closer look

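In 4 of the 60 sets of 4 samples (10 genes in 6 groups), 1 sample stood apart from the other 3 by Dixon's test. Chance gives 1 in 20 in independent sets, but these sets share cultures and animals, so the share cannot be weighed against it. TGFB1 was low in Angus animal 3 at 2 h (72.8 CPM) and at 8 h (54.6 CPM), and this animal also had the lowest Angus value at 0 h. TGFB3 was high in Angus animal 2 at 2 h (25.7 CPM). ID1 was high in Holstein animal 1 at 2 h (70.4 CPM), the animal whose cultures held KRT5 at 8.38 to 10.2 CPM.

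The change at 2 h differed between the breeds for ID1, by 1.43 on the log2 scale, and for SMAD7, by 1.04, in the test of the interaction, as given above.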

How the results depend on the processing

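The number of the 10 genes called changed by over 1.5 times in 3 comparisons. For the interaction at 2 h it was 2, and 1 with the quasi-likelihood F test, with RLE size factors (ID1 FDR = 0.0524) or with no filter (ID1 FDR = 0.0896), and 0 to 2 when 1 animal was left out. For Angus at 2 h it was 2, and 1 to 2 with 1 animal left out. For Angus at 8 h it was 0, and 1 without the 4 samples with the other read counting. In the comparisons over hours and the interactions, the animal as a replicate block changed no call of the 10 genes, alone or with the quasi-likelihood F test, a pairing of the 2 choices added after seeing the data. Between breeds equal numbers mark different animals (mean r of -0.119), and a block on the number, run without the quasi-likelihood F test only, left 3, 2 and 4 genes called at 0, 2 and 8 h.

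Some log2 fold changes near 0 changed sign. For TGFB3 at 2 h it became 0.0042 with DESeq2 or RLE size factors, 0.0061 with no filter and 0.0084 on symbol rows only, and for BMP2 at 8 h 0.0002 on symbol rows only. The interaction of INHBA at 2 h became 0.0158 with the replicate block and 0.0138 with the block and the quasi-likelihood F test. Without the 4 samples the values became 0.0493 (TGFB3, 2 h), 0.0723 (INHBA, 2 h to 8 h), 0.0354 (BMP2, Holstein 8 h), -0.0564 (BMP2, Angus 8 h), 0.0258 and -0.0280 (TGFB1 between breeds at 0 h and 2 h), and in the interactions -0.0645 (TGFB1), 0.0822 (INHBA) and -0.0904 (GREM1) at 2 h and 0.0797 (BMP2) at 8 h. With 1 animal left out, the range at 2 h was -0.0442 to 0.0579 for TGFB3 and -0.0477 to 0.0321 for BMP2, at 8 h -0.0237 to 0.0175 for BMP2, and from 2 h to 8 h -0.1546 to 0.0514 for INHBA and -0.0061 to 0.0565 for BMP2. It was -0.0598 to 0.0002 for BMP4 in Holstein at 8 h and -0.1538 to 0.0066 for BMP2 in Angus at 2 h. Between breeds at 0 h it was -0.1205 to 0.0478 (TGFB1), -0.1149 to 0.0723 (BMP2), -0.0271 to 0.2965 (BMP4) and -0.0705 to 0.1249 (ID3), at 2 h -0.0280 to 0.144 (TGFB1), at 8 h -0.2996 to 0.0764 (BMP4), and for the 2 h interaction -0.1465 to 0.1831 (INHBA).

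Over all rows the interaction at 2 h called 56 rows, and 16 with the quasi-likelihood F test, 28 on symbol rows only, 126 with the block, 33 without Angus animal 4 and 34 without Holstein animal 1. At 8 h it called 20, and 0, 100 and 6 with the quasi-likelihood F test, with the block and without the 4 samples, and 8, 62 and 2 without Angus animal 1, Angus animal 3 and Holstein animal 4. The breed comparison at 0 h called 777 rows, 258 without the 4 samples and 515 without Angus animal 4, and that at 8 h 671, 1128 without Angus animal 3 and 446 without Angus animal 4. Angus at 8 h called 178, and 90 with the quasi-likelihood F test. On symbol rows only, which are fewer, 389 rows were called against 591 at 2 h, 387 against 586 from 2 h to 8 h, and at 2 h 407 against 638 in Holstein and 403 against 607 in Angus. Apart from the smaller number of rows or samples, the cause of these shifts was not tested.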
